A study of Mus musculus with 6 samples.

Results

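The cytochrome bc1 complex, complex III of the mitochondrial respiratory chain, was examined together with cytochrome c in the striatum of mice lacking PGC-1a. The 10 genes are Uqcrc1, Uqcrc2, Uqcrfs1, Cyc1, Uqcrb, Uqcrq, Uqcrh, Uqcr10, Uqcr11 and Cycs, out of 18161 named genes with a probe set on the array. They were listed by name, and every probe set annotated to exactly 1 of these genes was taken, which gave 21 probe sets. A null genotype (PGC-1a-/-, KO, 3 mice) was set against wild type (PGC-1a+/+, WT, 3 littermates). All 6 mice were females of 6 months with 1 Affymetrix array each, and both genotypes descended from heterozygous founders. RNA came from whole striatum, so fewer cells of a type and less RNA per cell cannot be told apart. The label of KO 3 names cytoplasmic RNA and the other labels name total RNA. The series design names total RNA for all mice, and which holds is not settled. Values without KO 3 are given for several results.

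The bc1 complex takes electrons from reduced coenzyme Q, passes them through the Rieske iron-sulphur protein and cytochrome c1 to the small soluble carrier cytochrome c, and moves protons across the inner mitochondrial membrane as it does so. Cytochrome c then delivers the electrons to cytochrome oxidase, and when it escapes into the cytosol it starts the apoptosome. All subunits but cytochrome b, which mitochondrial DNA encodes, are made from nuclear genes and imported. PGC-1a is a transcriptional coactivator known for raising such nuclear genes through partners that include NRF1 and the oestrogen-related receptors, and the striatum is a brain region with a high demand for oxidative energy.

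Because those partners act at promoters, the RefSeq promoter windows of the members (GRCm38.p6, 250 bases before to 50 after the start, position 1 being the first transcribed base) were searched on both strands for 6 motifs. A window was at hand for 6 of the 10 genes: Cycs, Uqcr11, Uqcrh, Uqcrfs1, Uqcrc1 and Uqcr10. The 5 stretches below each hold a match, and are shown so that the letters can be set beside the expression values, with matched letters in capitals. The Cycs stretch lies at chr6:50566610-50566749 on the minus strand, the Uqcr11 stretch at chr10:80406812-80406901 (minus), the Uqcrh stretch at chr4:116075071-116075110 (minus), the Uqcrfs1 stretch at chr13:30545317-30545376 (minus) and the Uqcrc1 stretch at chr9:108936668-108936696 (plus).
Cycs: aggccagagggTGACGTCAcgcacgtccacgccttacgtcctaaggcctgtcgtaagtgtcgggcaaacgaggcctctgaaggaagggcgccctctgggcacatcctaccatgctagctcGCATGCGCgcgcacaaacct
Uqcr11: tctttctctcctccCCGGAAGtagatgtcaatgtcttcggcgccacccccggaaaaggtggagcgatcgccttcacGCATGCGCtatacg
Uqcrh: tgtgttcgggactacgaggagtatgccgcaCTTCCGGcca
Uqcrfs1: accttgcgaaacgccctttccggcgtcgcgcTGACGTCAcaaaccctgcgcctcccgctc
Uqcrc1: actccgctctGCGCATGCGCagcgcggct

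The NRF1 core GCATGCGC was found in 3 of the 6 member windows (Cycs, Uqcr11 and Uqcrc1), and in 2.71% of the 32851 windows in the table. The longer NRF1 form, GCGCA then any base then GCGC, which overlaps the core in Uqcrc1, was found in 1 of the 6 (Uqcrc1) and in 4.6% of all windows. In Cycs the core spans positions -60 to -53, in Uqcr11 it spans the start, from -4 to 4, and in Uqcrc1 the core lies within the transcribed part. The longer form lies there at 2 places, from 31 to 40 in the printed stretch and, on the other strand, from 6 to 15, which the stretch does not reach. The cyclic AMP response element TGACGTCA was found in Cycs (-169 to -162) and Uqcrfs1 (-29 to -22), and in 1.79% of all windows. The GABP core CCGGAAG was found in Uqcr11 (-66 to -60) and, on the other strand, in Uqcrh (-10 to -4), and in 8.86% of all windows. The oestrogen-related receptor motif TNAAGGTCA (1.28% of all windows) and the YY1 motif AANATGGCG (2.38%) were not among the letters of these 6 windows. The Uqcr10 window held none of the 6 motifs. These are letter matches in short windows and were not measured as binding.

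On the 6 arrays the trimmed mean signal was scaled alike (149.3 to 149.4), so each difference stands relative to all other probe sets of that array. Ppargc1a, the targeted gene, was lower in KO in all 5 of its probe sets. The leading one read 89.5, 87.9 and 68.4 in KO and 397, 305 and 370.3 in WT (KO minus WT -1.93 on the log2 scale, SE 0.14, limma adjusted p = 3.0e-05). With no other tissue measured, the tissue label could not be tested. The 8 measured markers of striatal projection neurons, among them Drd1 and Ppp1r1b, were compared between the groups. Their summed signal was 25657 to 28084 in KO and 23796 to 28400 in WT, so the groups overlapped. By single genes 2 were lower and 6 higher in KO, with a median difference of 0.07 and 0 called in limma. Pan-neuronal markers overlapped as well (27681 to 28955 in KO, 27594 to 29320 in WT), with 5 lower, 3 higher and a median of -0.04.

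Transcripts of the bc1 complex and cytochrome c read lower in KO, for 8 of the 10 genes by a similar, small amount at their brightest probe set. By the brightest probe set of each gene, all 10 genes had a negative KO minus WT difference, with a median of -0.27 on the scale of log2(signal + 16), a level 17.2% lower. Among all 12309 named genes tested the median was -0.01, and 51.8% had a negative difference. In 9 of the 10 genes every KO mouse lay below every WT mouse, against 8.47% of named genes. The same 9 had an unadjusted p under 0.05 in limma, against 5.61% of named genes in that direction. After Benjamini-Hochberg adjustment over all probe sets 0 of the 10 passed the threshold of 0.05, against 0.301% of named genes called lower. The differences of single members below are thus measured values and not called changes.

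**Figure D1:**
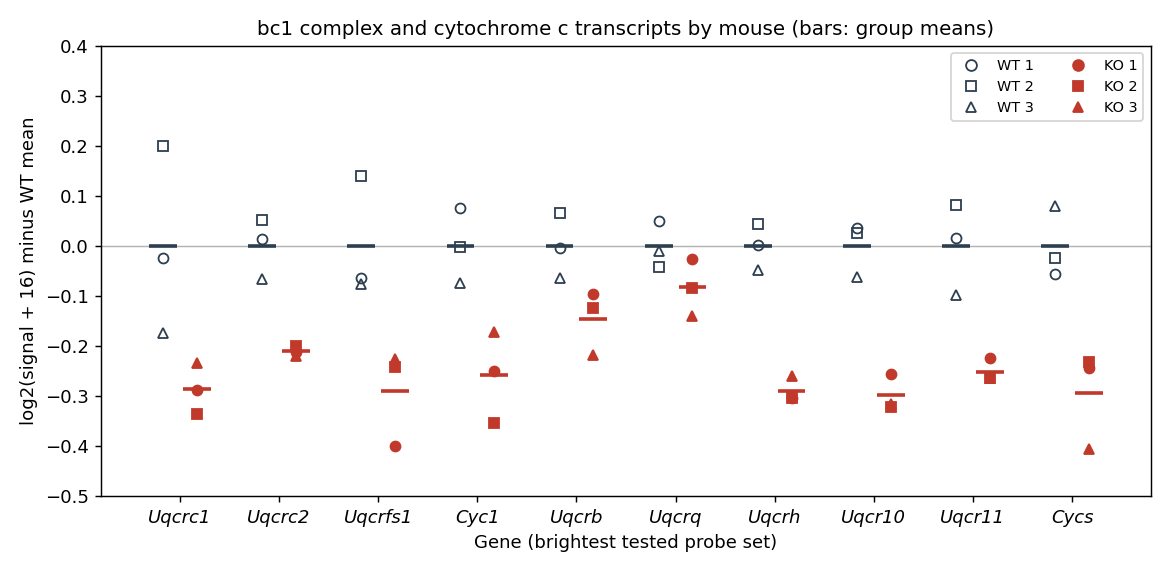
The plot of member signals by mouse gives log2(signal + 16) minus the WT mean of each gene (vertical axis, log2 units) for the brightest probe set of the 10 genes; open symbols are the 3 WT mice, filled symbols the 3 KO mice, circle, square and triangle replicates 1 to 3, and bars group means. All KO points lie below all WT points except in Uqcrq, where KO 1 lies among the WT mice.

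The 10 differences by the brightest probe sets were mostly close together. They ran from -0.30 in Uqcr10 to -0.08 in Uqcrq, and 8 of the 10 lay between -0.30 and -0.20. The per-mouse median over the genes, relative to the WT mean, was -0.25 in KO 1, -0.25 in KO 2 and -0.23 in KO 3. It was 0.01 in WT 1, 0.05 in WT 2 and -0.06 in WT 3. The KO mice were thus closer to each other than the WT mice were, and WT 3 was the WT mouse nearest to KO. WT 3 was the lowest WT mouse for 8 of the 10 genes and WT 2 the highest for 6. Without WT 2 the median difference was -0.21, and without KO 3 it was -0.27.

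**Figure D2:**
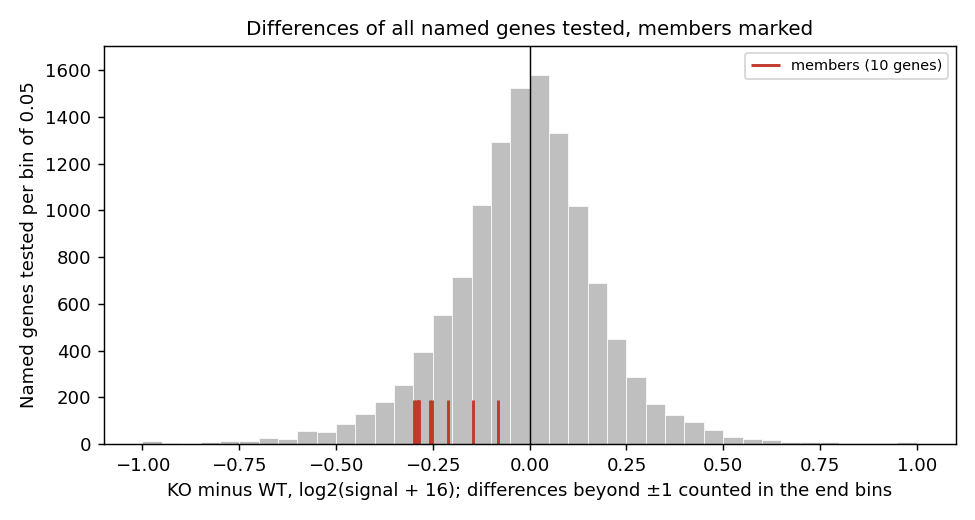
The histogram of KO minus WT differences on log2(signal + 16) counts the 12309 named genes tested in bins of 0.05 (vertical axis, genes per bin; differences beyond 1 in size fall in the end bins), with red ticks for the 10 members. All 10 ticks lie to the left of 0, inside the body of the distribution: 8.7% of named genes had a difference at or below the members' median of -0.27.

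Bright genes as a whole showed no such shift. Among the 1229 named genes at least as bright as the dimmest member (a signal of about 983), the median difference was 0.01 and 46.2% were lower. The 10 genes lie on 8 chromosomes (4, 6, 7, 9, 10, 11, 13 and 15) and none is on chromosome 5, which holds the targeted gene. Whether signal level or chromosome position has a part in the member differences was not tested.

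Uqcrc1 and Uqcrc2 encode the large core proteins that face the matrix and descend from a processing peptidase. Uqcrc1 read 1037, 1002 and 1077.5 in KO and 1247.5, 1459.5 and 1123 in WT. The groups did not overlap, but the WT mice were far apart and WT 3 stood only 45.4 signal units above the highest KO mouse. The difference was -0.29 (SE 0.09, limma adjusted p = 0.32), and it was -0.19 without WT 2. Uqcrc2 read 2146, 2164 and 2134 in KO and 2511, 2580 and 2376 in WT. Here the KO mice were nearly equal and all below WT, with a difference of -0.21 (SE 0.06, adjusted p = 0.28). A second Uqcrc2 probe set gave -0.20 with groups that again did not overlap.

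Uqcrfs1 and Cyc1 encode the subunits that carry electrons out of the complex, the Rieske iron-sulphur protein and cytochrome c1. Uqcrfs1 read 821.1, 917.6 and 927.6 in KO and 1040, 1201 and 1031.5 in WT. KO 1 was the lowest mouse and WT 2 the highest, and the groups were separate (difference -0.29, SE 0.09, adjusted p = 0.25). Cyc1 read 1444, 1344 and 1526 in KO and 1814, 1719 and 1633 in WT. Its groups were separate as well, with a difference of -0.26 (SE 0.07, adjusted p = 0.24), and without KO 3, the highest KO mouse, the difference was -0.30.

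The small subunits wrap the core of the complex and carry no redox group. Uqcrb and Uqcrq, both named as ubiquinone-binding subunits, had the differences nearest to 0 among the members. Uqcrb read 7387, 7253 and 6792 in KO and 7881, 8273 and 7563 in WT, with separate groups and a difference of -0.15 (SE 0.07, adjusted p = 0.52). Without KO 3, its lowest KO mouse, the difference was -0.11. A second, dimmer Uqcrb probe set gave -0.14, also with separate groups and with a 95% interval from -0.29 to 0.01. Uqcrq read 1118, 1073 and 1032 in KO and 1179, 1105.5 and 1130 in WT. By the brightest probe sets it was the only member whose groups overlapped, since KO 1 read above WT 2. The Uqcrq difference was -0.08 with a 95% interval from -0.24 to 0.07 (adjusted p = 0.79), an interval that takes in both 0 and the values of its neighbours Uqcrb and Uqcrc2. With 1 array left out the Uqcrq difference ran from -0.11 to -0.05, the latter without KO 3. The other 3 Uqcrq probe sets read at most 28.2 on any array and were not tested.

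Uqcrh, the acidic hinge protein that helps cytochrome c1 dock cytochrome c, had the smallest p among the brightest probe sets. It read 2689, 2688 and 2770 in KO and 3326, 3426 and 3213 in WT. Both groups were tight and lay 443.7 signal units apart at their nearest mice, for a difference of -0.29 (SE 0.06, limma adjusted p = 0.087). Quantile normalization brought this probe set just past the threshold (adjusted p = 0.0498), and over 15 alternatives its adjusted p ran from 0.0498 to 0.44. Its name ends in _s_at, which Affymetrix uses for probe sets that can match several transcripts, and the RefSeq table lists Uqcrh pseudogenes. A second Uqcrh probe set gave -0.35 (adjusted p = 0.28) with more scatter, and KO 2 (2184) read above WT 3 (2067) there.

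Uqcr10, a small subunit next to the Rieske protein, had the largest differences of the set, and its 3 probe sets did not give the same size. The brightest read 1008, 961.3 and 965.3 in KO and 1237, 1228 and 1154 in WT (difference -0.30, SE 0.07, adjusted p = 0.13). The next read 286.8, 357 and 241.4 in KO and 430.2, 450.5 and 454.4 in WT (difference -0.58, SE 0.12, adjusted p = 0.075). The dimmest read 136.4, 212.8 and 117.2 in KO and 279.9, 280.1 and 260.7 in WT (difference -0.79, SE 0.17, adjusted p = 0.077). KO and WT were separate in all 3, and in the dimmer pair KO 2 stood nearest to WT. Without KO 2 the dimmer pair passed the limma threshold, at -0.72 (adjusted p = 0.022) and -1.02 (adjusted p = 0.0059), and without KO 3 they stood at -0.46 (adjusted p = 0.20) and -0.63 (adjusted p = 0.21). Over the 15 alternatives their adjusted p ran from 0.022 to 0.33 and from 0.0059 to 0.32. Within an array, the dimmest probe set minus the brightest was -2.75, -2.09 and -2.88 on the log2 scale in KO and -2.08, -2.07 and -2.08 in WT. KO 1 and KO 3 were therefore lower relative to WT in the dimmest probe set than in the brightest, while KO 2 lay close to the WT mice in that ratio. This contrast between probe sets was chosen after its values were seen, and what the probe sets cover in the transcript was not analysed here.

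Uqcr11, a further small subunit, read 1577, 1532 and 1532 in KO and 1865, 1952 and 1721 in WT. The KO mice were tight, the WT mice were not, and the groups were separate (difference -0.25, SE 0.07, adjusted p = 0.23).

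Cycs encodes somatic cytochrome c, the mobile carrier that the complex reduces. It was measured by 4 tested probe sets, all lower in KO. The brightest read 4413, 4446.5 and 3945 in KO and 5027, 5139 and 5530 in WT. All WT mice stood at least 580.2 signal units above the highest KO mouse, and KO 3 was lowest (difference -0.29, SE 0.07, adjusted p = 0.14; -0.24 without KO 3). The next pair of probe sets gave -0.25 (adjusted p = 0.17) and -0.28 (adjusted p = 0.22), each with separate groups. The dimmest read between 31.6 and 63.8 on all arrays, gave -0.34 with a 95% interval from -0.76 to 0.08, and its groups met at 47.5; with 1 array left out it ran from -0.44 to -0.22. Several Cycs pseudogenes are listed in the RefSeq table, and signal from their transcripts could not be told apart here. The testis form of the gene, Cyct, had a probe set that was too dim to be tested.

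**Figure D3:**
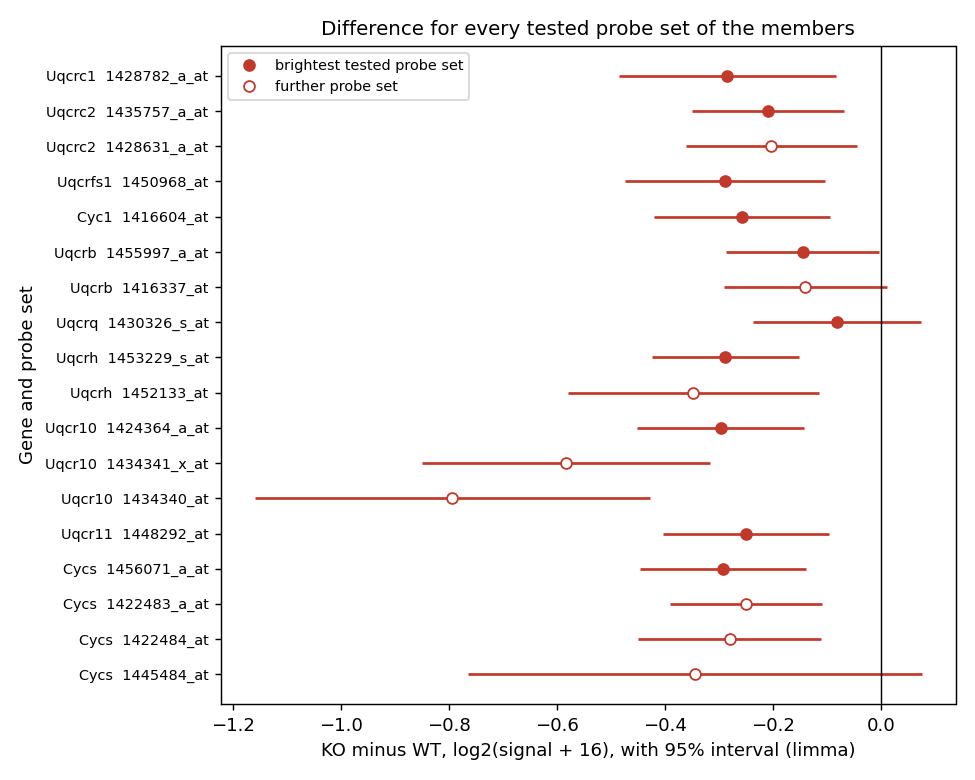
The plot of all 18 tested member probe sets gives the KO minus WT difference on log2(signal + 16) (horizontal axis) with its 95% interval from limma; filled points are the brightest probe set of each gene and open points further ones. All 18 points lie below 0, 3 intervals reach past 0 (those of Uqcrq, the dimmer Uqcrb probe set and the dimmest Cycs probe set), and the dimmer pair for Uqcr10 lies farthest to the left.

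Over the 18 tested probe sets, 18 were lower in KO (background 51.1%), 15 had separate groups (background 7.88%) and 15 had an unadjusted p under 0.05 (background 5.06% in that direction). In limma 0 passed adjustment, against 0.292% of the 27022 probe sets tested, and the adjusted p ran from 0.075 to 0.79. The remaining 3 of the 21, all for Uqcrq, lay below the filter on dim signals. Of the 5 genes with several tested probe sets, Uqcrc2 gave -0.21 and -0.20, Uqcrb -0.15 and -0.14, and Uqcrh -0.29 and -0.35. Cycs ranged from -0.34 to -0.25, and Uqcr10 had the widest range, from -0.79 to -0.30.

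Genes that work around the complex did not all read lower with its subunits. Factors that assemble the bc1 complex or attach haem to its cytochromes numbered 6 among those measured: 5 had a positive difference, that of Hccs being 0.00, the median was 0.10 and 0 were called in limma. Of all named genes 51.8% had a negative difference. Ttc19, which clears fragments of the Rieske protein from the finished complex, read 443.4, 440.3 and 435.5 in KO and 338.2, 408.9 and 372.7 in WT (difference 0.23, adjusted p = 0.46). Uqcc2, an assembly factor that acts on newly made cytochrome b, read 1592, 1547 and 1675 in KO and 1455, 1476 and 1346 in WT (difference 0.17, adjusted p = 0.48). In both genes every KO mouse lay above every WT mouse (background 6.64% of named genes), and these 2 were the members of the list with an unadjusted p under 0.05 (background 4.12% for higher named genes). Both are read by the brightest probe set alone, of 3 tested for Ttc19 and 2 for Uqcc2. Whether the further probe sets go the same way is not given here. Hccs, the enzyme that attaches haem to cytochrome c, gave 0.00 with a 95% interval from -0.20 to 0.20. Uqcc3, a further assembly factor, gave -0.22 (SE 0.15, adjusted p = 0.71), with 165.2, 175.7 and 214.5 in KO and 258.8, 228.1 and 174.4 in WT, so its groups overlapped. The median of the list was 0.04 without WT 1, 0.06 without KO 1 and without WT 2, and 0.17 without WT 3.

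Coenzyme Q, the substrate of the complex, is made by the Coq enzymes. Of 12 measured genes of its synthesis 6 were lower and 6 higher, with a median of 0.00 and 0 called or at an unadjusted p under 0.05 in limma. The background was 51.8% lower, with 5.61% lower and 4.12% higher at that p. The smallest p belonged to Coq9, a lipid-binding protein of the synthesis complex (-0.20, adjusted p = 0.57), and Coq7, the hydroxylase it assists (-0.14, adjusted p = 0.72). Coq9 read 326.6, 311.2 and 308.8 in KO and 387.6, 382 and 328.7 in WT, and every KO mouse lay below every WT mouse. Coq2, which attaches the side chain to the ring, was separate in the opposite direction, with 663.7, 656.3 and 661 in KO and 629, 533.9 and 654.2 in WT (difference 0.13, adjusted p = 0.73). Of the 12 genes 1 thus lay entirely below and 1 entirely above WT. That is near the share of all named genes (8.47% below and 6.64% above). The median of the list ran from -0.01 (without WT 2) to 0.08 (without WT 1) when 1 array was left out.

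Enzymes other than complexes I and II that reduce coenzyme Q were lower in 7 of 8 genes, with a median of -0.21, 3 at an unadjusted p under 0.05 and 0 called. Among all named genes 51.8% had a negative difference. In limma 5.61% of them were lower at an unadjusted p under 0.05, and 0.301% were called lower. Etfb, a subunit of the electron transfer flavoprotein that brings electrons from fatty acid oxidation, read 270.7, 288 and 336 in KO and 410.7, 380.5 and 368.7 in WT. Those groups were separate (difference -0.36, SE 0.10, adjusted p = 0.24). Sqor, which oxidises sulphide, gave -0.35 (adjusted p = 0.48) from dim signals of 66.6 to 106.

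Haem synthesis, which supplies the cytochromes, was lower in 10 of 11 genes by a small median of -0.08, with 1 gene at an unadjusted p under 0.05 and 0 called in limma. That 1 of 11 is near the share of named genes lower at that p (5.61%), while 51.8% had a negative difference. The median was -0.04 without WT 1 and -0.04 after centring the arrays on their medians. Uros, the uroporphyrinogen synthase, gave -0.39 (adjusted p = 0.40), with WT 1 (330.2) far above the other WT mice (230.9 and 234.8). Abcb10, a mitochondrial transporter needed for haem, gave -0.20 (adjusted p = 0.72), and Alas1, the first enzyme of the pathway, gave -0.10 with overlapping groups. In 3 of the 11 genes, Uros among them, every KO mouse lay below every WT mouse (background 8.47% of named genes).

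Genes linked to cytochrome c in apoptosis, a list wider than those it acts through, were lower in 7 of 10, with a median of -0.07. At an unadjusted p under 0.05 in limma stood 1 of them, and 0 were called. Of named genes 51.8% were lower, 5.61% were lower at that p and 0.301% were called lower, so that 1 is near background. That median was -0.11 without KO 1 and without WT 2, -0.04 without WT 3, -0.02 without KO 3 and -0.02 after the same centring. Casp9, the caspase that the apoptosome activates, gave -0.50 (adjusted p = 0.40), from 65.1 to 76 in KO and from 78.5 to 142.3 in WT. Htra2, a mitochondrial protease released with cytochrome c, gave -0.19 (adjusted p = 0.74). A short list of further cytochrome c partners and cytochrome b5 genes had 4 of 5 lower (background 51.8%) at a median of -0.03. In limma 0 were called and 0 had an unadjusted p under 0.05 (background 5.61% lower and 4.12% higher). Cyb5a gave -0.06 (adjusted p = 0.84) and Cyb5r3 0.08 (adjusted p = 0.89).

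The subunit genes of the other chain complexes are given for scale. Complex II subunits were lower in 4 of 4 genes (median -0.29), complex IV subunits in 10 of 10 (median -0.22), ATP synthase subunits in 15 of 15 (median -0.20) and complex I subunits in 33 of 34 (median -0.16), with 0 called in each. At an unadjusted p under 0.05 in limma and lower were 3, 5, 13 and 15 of them in that order. Among all named genes 5.61% were lower at that p, 0.301% were called lower and 51.8% had a negative difference. Without KO 3 the medians were -0.24, -0.22, -0.20 and -0.15 in the same order. No test was made of whether the bc1 complex differs from these, and the ranges of the gene differences overlapped.

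**Figure D4:**
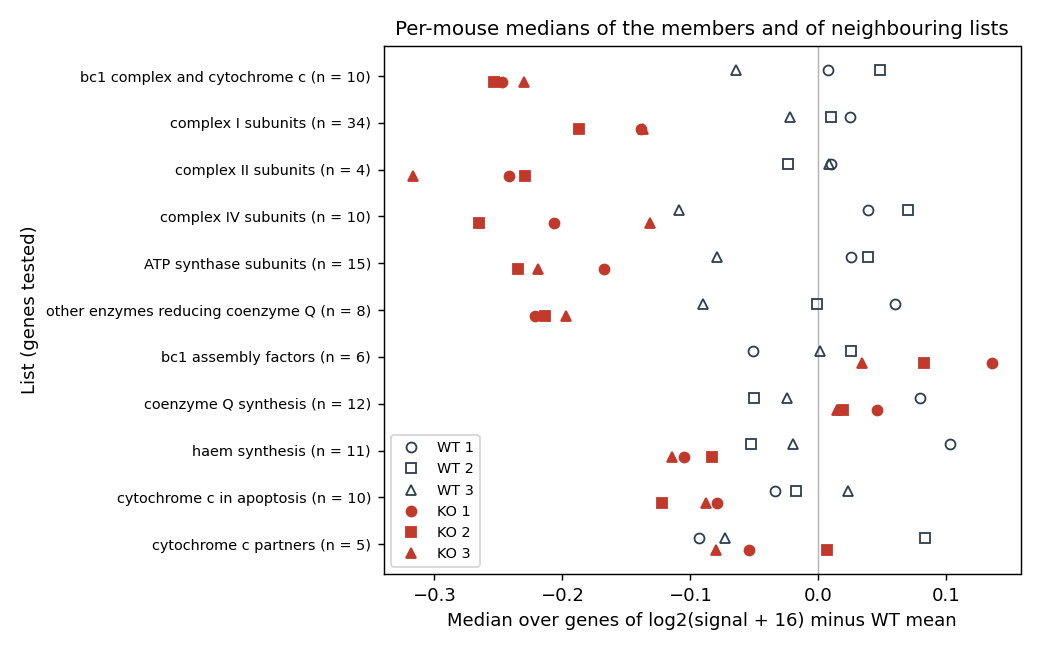
The plot of per-mouse medians gives, for the members and 10 neighbouring lists, the median over genes of log2(signal + 16) minus the WT mean (horizontal axis); open symbols are WT mice, filled symbols KO mice, and n is the number of genes tested. KO medians lie left of all WT medians for the members, the other chain complexes, the other enzymes that reduce coenzyme Q, haem synthesis and the apoptosis list, right of all WT medians for the bc1 assembly factors, and among them for coenzyme Q synthesis and the cytochrome c partners.

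By the root mean square distance of their profiles over the 6 arrays, the genes most like the members' median were Atp5c1, Gng13, Pcnx3, Clic1 and Omg, at distances of 0.012 to 0.030 in log2 units. Atp5c1, the gamma subunit of ATP synthase, was nearest, and read 3388, 3374 and 3448 in KO and 4129, 4200 and 3835 in WT (difference -0.25, adjusted p = 0.17). The members themselves lay at 0.026 (Uqcr11) to 0.129 (Uqcrq) from their own median. Likeness over 6 arrays from so many genes is a description of these mice only.

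Markers of other cells that striatal tissue can hold were read beside these results. Of the choroid plexus markers, Ttr was called higher in limma (0.91, adjusted p = 0.035), and Clic6 gave 0.18 with overlapping groups (adjusted p = 0.73). The summed signal of both, mostly that of Ttr, was 2812 to 3866 in KO and 1480 to 2387 in WT. The other 4 on that list (Kl, Aqp1, Folr1 and Kcne2) were too dim to be tested. Parvalbumin interneuron markers were lower in 3 of 4 (median -0.49, 3 at an unadjusted limma p under 0.05, 0 called), with sums of 1291 to 1802 in KO and 1513 to 2839 in WT. Oligodendrocyte markers were lower in 5 of 6 (median -0.18, 1 at an unadjusted p under 0.05, 0 called), with sums of 23895 to 25802 in KO and 24337 to 29331 in WT. Astrocyte, microglial, vascular, cholinergic and cortical neuron markers overlapped between the groups in their sums, with 0 called in limma. At an unadjusted p under 0.05 stood 1 lower and 1 higher microglial marker (background 5.61% lower and 4.12% higher). No measured marker was at 0. The part of these cell types in the bc1 differences was not tested.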

How the data were processed

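The file holds scaled MAS5 signals, deposited as linear intensity values, 1 per probe set and array, per the submitters' processing notes (MAS5 version: not given in the sources used here). Of 45101 probe sets, 64 controls were left out, and genes were named through the platform annotation and the GRCm38.p6 RefSeq table. The analysis used log2 of the signal plus 16, which shrinks differences of dim probe sets. Those with a mean log2 signal above the 40th percentile (a signal of about 26.8), 27022 in all, entered limma 3.58.1 (R 4.3.3; lmFit, eBayes with an intensity trend), with Benjamini-Hochberg adjustment over all of them and a threshold of 0.05. Intervals are limma's, at 95%. Each gene was represented by its brightest tested probe set. The procedure was tested on simulated data. The simulated shifts were larger than the members' differences by their brightest probe sets, so detection at that size was not tested.

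Named are all members, Ppargc1a, for each pathway list its called genes or the 2 with the smallest p, and the 5 genes nearest to the members' profile; Alas1, Hccs, Coq2, Uqcc3, single markers and the Uqcr10 contrast were chosen after their values were seen. The members and lists were chosen with earlier results of these data known, so the lower levels are no independent support. The 3 arrays per group limit the precision. Replicates are separate mice.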

Additional observations from a re-analysis of the deposited data

How the results depend on the processing

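All 10 members kept a negative difference under the 15 alternatives run on them. Some of these change the values or the arrays: quantile normalization, centring on the array median, offsets of 1 and 64, and each array left out. The rest were no filter, a filter at the 60th percentile, no intensity trend, robust estimation and the replicate block. Those leave each difference as it is by design, so its sign could not change under them. All 18 tested probe sets were lower when every one was counted. The dimmest Cycs probe set was not tested with the filter at the 60th percentile. Uqcrq stood at -0.04 with arrays centred on the median and Uqcrb at -0.09 after quantile normalization. As a mean over a gene's probe sets, Uqcrq gave -0.18 (SE 0.13) and Uqcr10 -0.56. That mean takes in untested probe sets. For Uqcrq it includes the 3 that read at most 28.2 on any array, so its value rests largely on dim signals. The median difference was -0.23 with each array centred on its median, a scaling that moved all named genes to a median of 0.04, and -0.30 to -0.21 with 1 array left out. The number of member genes called was 1 instead of 0 after quantile normalization (Uqcrh). Over the whole table the 127 calls became 52 when no filter was set, 25 when eBayes had no trend, and 66 to 101 with 1 array left out (66 without KO 1, 69 without WT 2 and 74 without KO 2); the cause was not tested. The median of the coenzyme Q synthesis list turned negative (lowest -0.01) and that of the cytochrome c partners positive (highest 0.02) under some alternatives.

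With the replicate number as a block 100 probe sets and 0 members were called. Same-numbered mice did not deviate together (correlations of -0.009, -0.035 and 0.017 over 27022 probe sets), so the numbers were not taken as pairs, and not every mouse correlated best with its own number.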
